A study of Mus musculus with 18 samples.

Results

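The genes described here encode the main glucose transporter and the enzymes that turn glucose into lactate in mouse splenocytes. The 10 genes were chosen by name, as Slc2a1, Hk2, Pfkl, Pfkp, Aldoa, Gapdh, Pgk1, Eno1, Pkm and Ldha, out of 47729 reference genes listed for each sample, and all 10 were among the 11455 protein-coding genes tested. Earlier results of these data were known when the genes were chosen, so their counts and medians below are not an independent test of the pathway. RNA of 18 samples of C57BL/6J mice, labelled female and 4 to 6 weeks of age, was sequenced. The 6 LMA samples are labelled LPPC/mp/CD28 and came from mice first immunized and boosted with LPPC/MP and then modulated with LPPC/MP/CD28, the same complex with an anti-CD28 antibody. The 6 LMS samples are labelled LPPC/mp/CD152 and came from mice with the same first doses and LPPC/MP/CTLA4, with an anti-CTLA4 antibody, as the modulation (CD152 is another name of CTLA4). The 3 LM samples are labelled LPPC/mp and came from mice immunized and boosted with LPPC/MP alone, and the 3 N samples came from naive mice. LPPC is a cationic lipo-PEG-PEI particle that adsorbs proteins, and MP stands for membrane proteins of dendritic cells loaded with antigen. The labels do not tell 1 modulation from 2, and no group had LPPC/MP without antibody as its modulation. The harvest time of each group is not given in the text sources used here. The antibody, the further dose and any difference in time thus cannot be told apart in comparisons with LM. The protocol text attached to the labels describes melanoma tumours instead of splenocytes, and none of the 4 melanocyte markers examined averaged 0.5 FPKM (fragments per kilobase of transcript and 1000000 fragments, the unit of every level below). Whether the samples of a group came from separate animals is not stated, and the p-values cover only the variation among these samples.

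Glycolysis breaks glucose down to pyruvate in the cytosol and yields ATP without oxygen. Lymphocytes and myeloid cells raise glucose uptake and glycolysis when they are activated, and signals through CD28 are known to raise both in T cells, whereas CTLA4 opposes CD28. The transcription factors HIF1 and Myc are known to activate many genes of this pathway. HIF1 binds a short core, ACGTG or GCGTG, near many of them.

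The stretch of 250 bases before the start site is shown for the transporter gene Slc2a1, for Pgk1 and Hk2, and for Ldha, because these 4 genes show the different patterns described below. The sequences are from RefSeq on GRCm38.p6, 5′ to 3′ in the direction of the gene, and the capitals mark the core ACGTG or GCGTG on either strand (CACGT or CACGC where the core is on the opposite strand).
Slc2a1 (chr4:119108495-119108744, plus strand): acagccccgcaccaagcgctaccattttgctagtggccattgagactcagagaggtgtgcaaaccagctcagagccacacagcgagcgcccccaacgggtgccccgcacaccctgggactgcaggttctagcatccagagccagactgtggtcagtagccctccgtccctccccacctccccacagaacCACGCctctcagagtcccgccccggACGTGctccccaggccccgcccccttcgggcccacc
Pgk1 (chrX:106186850-106187099, plus strand): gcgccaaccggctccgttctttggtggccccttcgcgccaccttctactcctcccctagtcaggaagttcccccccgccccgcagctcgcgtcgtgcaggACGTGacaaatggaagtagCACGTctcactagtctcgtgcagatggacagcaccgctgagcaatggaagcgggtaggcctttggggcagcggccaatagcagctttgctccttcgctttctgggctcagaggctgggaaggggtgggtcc
Hk2 (chr6:82774455-82774704, minus strand): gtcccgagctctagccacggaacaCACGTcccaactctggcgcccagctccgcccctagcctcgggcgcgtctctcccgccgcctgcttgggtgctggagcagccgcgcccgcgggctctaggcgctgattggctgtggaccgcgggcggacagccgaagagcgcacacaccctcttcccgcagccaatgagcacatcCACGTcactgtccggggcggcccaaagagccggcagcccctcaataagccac
Ldha (chr7:46845554-46845803, plus strand): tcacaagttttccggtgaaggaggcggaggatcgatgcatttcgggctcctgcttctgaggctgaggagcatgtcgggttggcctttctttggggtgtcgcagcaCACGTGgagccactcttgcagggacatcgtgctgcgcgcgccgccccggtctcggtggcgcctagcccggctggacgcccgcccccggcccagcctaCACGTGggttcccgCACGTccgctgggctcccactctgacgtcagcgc
The promoters of Slc2a1, Pgk1 and Hk2 held the core at 2 positions each. The Ldha promoter held it at 5 positions, of which 4 lie in the 2 copies of the palindrome CACGTG, where the core reads on both strands. RefSeq lists 16 start sites for the 10 genes, and the core was in 14 of these 16 windows and in at least 1 window of each gene. The windows are not all separate. Those of Aldoa start sites 2 and 3 overlap and share 1 position of the core, and those of Eno1 start sites 2 and 3 share 2. Of all 32851 windows of the same length in the table, 38.6% held the core. This is a share of windows, and the share of genes with the core in at least 1 window is not given here. The windows of the 10 genes had 50.4% to 71.2% G and C, against a median of 52.4% over all windows, and the share with the core was not compared at matched base composition.

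The samples differed in more than their labels before any comparison of the groups. Aligned sequence ranged between 5.21 and 7.92 gigabases per sample. Eif2s3y, a Y-linked gene, was listed at 0 FPKM in N 1, N 2, LMS 2 and LMS 5 and was present in the other 14 samples although every label reads female. The summed B cell markers were at 1430 to 1866 FPKM in these 4 samples and at 29.9 to 339.9 FPKM in the other 14, and the summed T cell markers were at 408 to 655 FPKM and at 6.62 to 126 FPKM. The summed macrophage and monocyte markers ran the other way, at 415 to 507 FPKM in the 4 samples and 2042 to 3624 FPKM in the other 14. No marker of these lists was at 0 throughout a group, but in N 3 the T cell marker Cd3e was at 0.843 FPKM, while N 1 was at 68.8 FPKM. Hemoglobin genes made up 16.8%, 17.2% and 18.4% of all reference FPKM in LMS 2, LMS 5 and N 2. They made up 0.67% in N 1 and at most 1.85% in the other 14 samples, so N 1 was unlike the other samples lacking Eif2s3y in this. Counts are therefore repeated with the 4 samples lacking Eif2s3y left out, and the main counts also with N 3 and LMS 1, 3, 4 and 6 left out instead. These 2 sets were picked with the data in view.

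Together the 10 genes made up 1.28% to 1.58% of all reference FPKM in LMA, 0.104% to 1.37% in LMS, 1.21% to 1.496% in LM and 0.111% to 1.54% in N. The 4 samples without Eif2s3y were at 0.104% to 0.167%, and no other sample was under 1.21%. In bulk RNA, fewer cells of a type and less RNA per cell cannot be told apart. The part of the B cell, T cell and myeloid markers and of hemoglobin in the levels of the 10 genes was not tested.

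**Figure D1:**
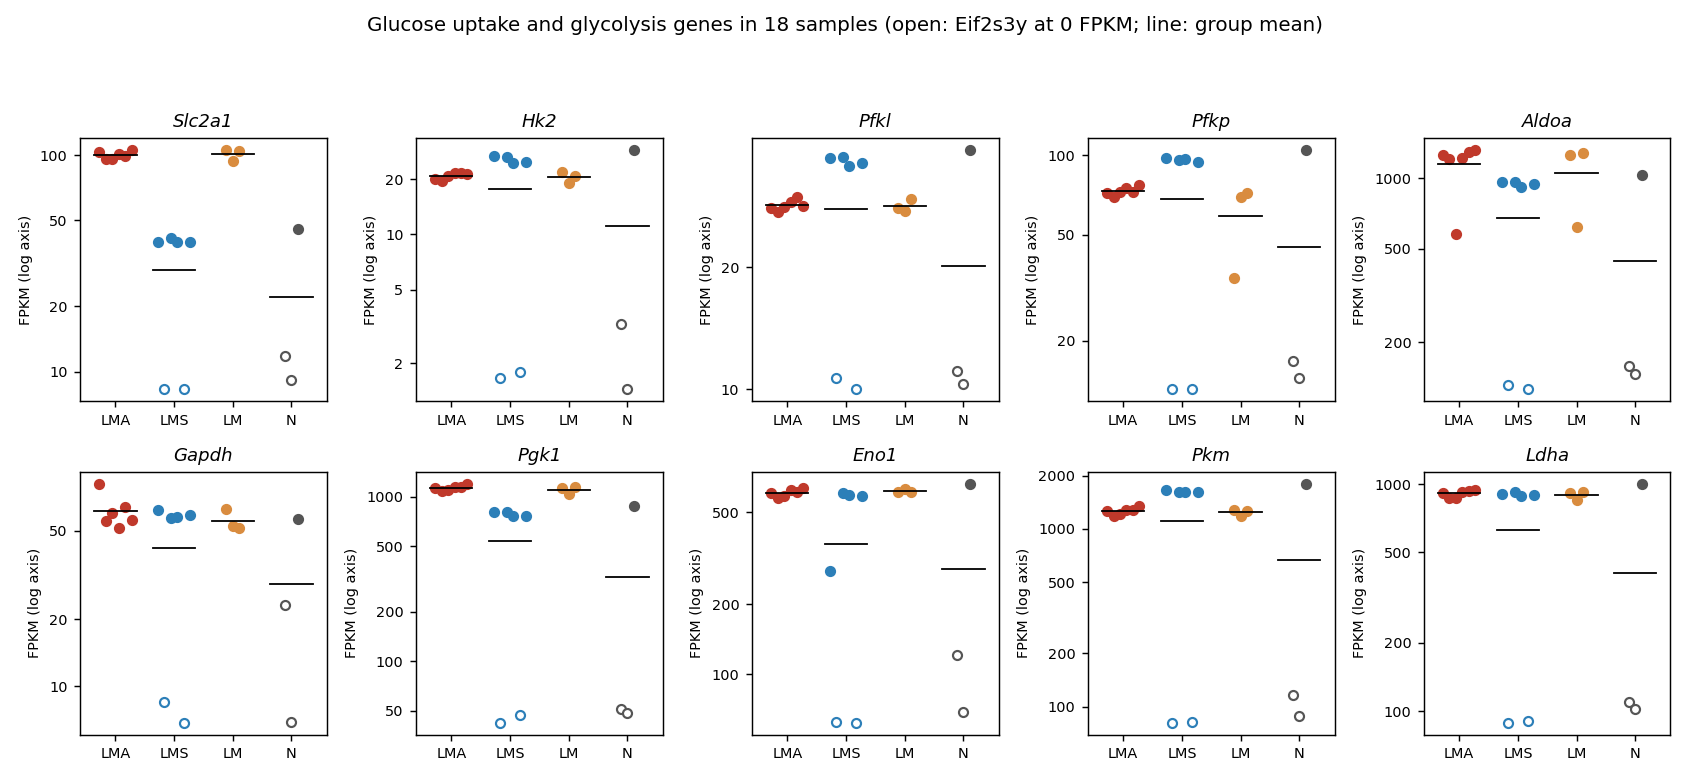
FPKM on a log axis of each of the 10 genes in the 6 LMA, 6 LMS, 3 LM and 3 N samples, with open points for the 4 samples at 0 FPKM of Eif2s3y and a line at the mean of each group. LMA and LM lie together in most panels, while LMS and N each split into higher filled points and lower open points, such as 39.5 to 41.3 against 8.26 and 8.28 FPKM of Slc2a1 in LMS.

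Slc2a1 encodes GLUT1, the transporter that brings glucose into most blood cells. Slc2a1 (ENSMUSG00000028645, chromosome 4 from 119108711 to 119137983 of GRCm38) was at 96.1, 100.3 and 105.5 FPKM as the lowest, median and highest of LMA. In LMS it was at 39.7, 8.26, 41.3, 39.6, 8.28 and 39.5 FPKM in LMS 1 to 6. It was at 105, 94.2 and 105 FPKM in LM and at 11.9, 9.09 and 45.6 FPKM in N. Every LMA and LM sample was thus above every LMS and N sample, including those that carry Eif2s3y. How many of all genes tested separate the samples in this way is not given here, for this gene or for those below. Slc2a1 rose by 2.52 on the log2 scale in LMA against N (standard error 0.55, adjusted p = 0.0026 in limma) and by 2.05 in LMA against LMS (standard error 0.45, adjusted p = 0.0023). With the 4 samples lacking Eif2s3y left out, it remained higher in LMA than in LMS by 1.31 (standard error 0.04, adjusted p = 2.3e-12). These and all later differences are log2 fold changes of FPKM + 0.5, a scale that understates changes of low genes. Slc2a1 also passed the test in LM against N, at 2.53 (standard error 0.64, adjusted p = 0.0089), and in LMS against LM, where it fell by 2.06 (standard error 0.55, adjusted p = 0.013).

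The first steps of glycolysis trap glucose in the cell and commit it to the pathway. Hk2 encodes the hexokinase that is typical of activated and growing cells. Hk2 (ENSMUSG00000000628, chromosome 6 from 82725025 to 82774454) was at 19.6, 21.02 and 21.7 FPKM as the lowest, median and highest of LMA. It was at 26.6, 1.65, 26.3, 24.6, 1.78 and 24.8 FPKM in LMS 1 to 6. In LM it was at 21.8, 19.0 and 20.8 FPKM and in N at 3.28, 1.44 and 28.7 FPKM. The levels of LMA lay inside the range of LMS and of N, above the 4 samples without Eif2s3y and below the other 5. Hk2 differed by 0.89 in LMA against LMS over all samples (standard error 0.73, adjusted p = 0.40) and fell by 0.29 without the 4 samples (standard error 0.04, adjusted p = 3.7e-05).

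Pfkl and Pfkp encode the liver and platelet forms of phosphofructokinase, the step that commits sugar to glycolysis. Pfkl (ENSMUSG00000020277, chromosome 10 from 77986947 to 78010083) was at 27.3 to 29.9 FPKM in LMA, at 10.7 and 9.99 FPKM in LMS 2 and 5, at 35.6 to 37.3 FPKM in the other LMS samples, at 27.5 to 29.4 FPKM in LM, and at 11.1, 10.3 and 38.9 FPKM in N. Pfkp (ENSMUSG00000021196, chromosome 13 from 6579768 to 6648777) was at 69.5 to 77.1 FPKM in LMA, at 13.1 FPKM in both LMS 2 and LMS 5, at 94.6 to 97.7 FPKM in the other LMS samples, at 34.5, 69.5 and 72.2 FPKM in LM, and at 16.8, 14.4 and 104 FPKM in N. Both genes thus showed the order of Hk2, with every LMA and LM value above the 4 samples lacking Eif2s3y and below the other LMS and N samples. Neither passed the test in LMA against LMS over all samples, at 0.23 for Pfkl (adjusted p = 0.68) and 0.55 for Pfkp (adjusted p = 0.53). When the 4 samples lacking Eif2s3y were left out, Pfkl fell by 0.36 (standard error 0.03, adjusted p = 1.2e-07) and Pfkp by 0.39 (standard error 0.15, adjusted p = 0.035).

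Aldoa encodes aldolase A, which splits the phosphorylated sugar in the middle of the pathway. Aldoa (ENSMUSG00000030695, chromosome 7 from 126795234 to 126809108) was at 1203 to 1318 FPKM in 5 LMA samples and at 579 FPKM in LMA 3. It was at 962, 131, 968, 919.7, 126 and 949 FPKM in LMS 1 to 6, at 1252, 623 and 1277 FPKM in LM, and at 159, 146 and 1033 FPKM in N. The 2 low values in LMA 3 and LM 2 were not matched by the read coverage, which is given after the account of Gapdh. Aldoa differed by 1.94 in LMA against N (standard error 0.76, adjusted p = 0.057) and by 1.18 in LMA against LMS (standard error 0.62, adjusted p = 0.17), and neither passed the test.

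The later steps recover ATP and end in pyruvate. Pgk1 encodes the first enzyme that makes ATP in the pathway and is X-linked (ENSMUSG00000062070), from 106187100 to 106203699 of GRCm38. Pgk1 was at 1076, 1129 and 1197 FPKM as the lowest, median and highest of LMA. It was at 803, 42.1, 800, 762, 46.8 and 766 FPKM in LMS 1 to 6, at 1121, 1042 and 1140 FPKM in LM, and at 51.0, 48.4 and 870.4 FPKM in N. By FPKM, Pgk1 was the other gene of the 10 whose LMA and LM samples were all above every LMS and N sample. By read coverage per aligned gigabase, taken up below, Aldoa separated likewise, at 393 to 439 in LMA and LM. There it was at most 320 in LMS and 338 in N. The Pgk1 mean of 1121 FPKM in LM and LMA together was 23.8 times that of the 4 samples without Eif2s3y, the highest such ratio of the 10. Pgk1 rose by 3.12 in LMA against N (standard error 1.04, adjusted p = 0.030) but in LMA against LMS, at 1.90 (standard error 0.85, adjusted p = 0.11), it missed the threshold. Leaving out those 4 samples, it was higher in LMA than in LMS by 0.53 (standard error 0.035, adjusted p = 1.4e-08).

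Eno1 and Pkm encode the enolase and the pyruvate kinase of most tissues, the last steps before pyruvate. Eno1 (ENSMUSG00000063524, chromosome 4 from 150236721 to 150248879) was at 576 to 637 FPKM in LMA, at 280, 62.1, 607, 593, 61.6 and 588 FPKM in LMS 1 to 6, at 613, 634 and 613 FPKM in LM, and at 120, 68.6 and 665 FPKM in N. Apart from the 4 samples and LMS 1, all Eno1 values lay between 576 and 665 FPKM. Pkm (ENSMUSG00000032294, chromosome 9 from 59656368 to 59679375) was at 1186 to 1340 FPKM in LMA, at 80.9 and 81.6 FPKM in LMS 2 and 5, at 1609 to 1657 FPKM in the other LMS samples, at 1179 to 1280 FPKM in LM, and at 116, 88.5 and 1800 FPKM in N. By the group mean, Pkm was the most abundant of the 10 genes in LM and LMA together and in the 5 samples of LMS and N with Eif2s3y, while in the 4 samples without it Aldoa came first. Within LMA and LM the values of Pkm, Aldoa and Pgk1 overlapped, and Aldoa was above Pkm in LMA 1, 2 and 5 and in LM 3, whereas every Ldha value, at 854 to 945.5 FPKM, was below every Pgk1 value. Pkm fell by 0.37 in LMA against LMS without the 4 samples (standard error 0.04, adjusted p = 7.3e-07), and Eno1 differed by 0.30 (standard error 0.17, adjusted p = 0.14).

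Ldha encodes the lactate dehydrogenase subunit that favours lactate, the end point of glycolysis without oxygen. Ldha (ENSMUSG00000063229, chromosome 7 from 46841475 to 46855627) was at 868, 919.7 and 945.5 FPKM as the lowest, median and highest of LMA. It was at 905, 89.0, 920.2, 887, 90.6 and 891 FPKM in LMS 1 to 6, at 910, 854 and 920.3 FPKM in LM, and at 110, 103 and 1004 FPKM in N. Outside the 4 samples without Eif2s3y the LMA, LMS and LM values overlapped, and N 3 was above all of them. Ldha differed by 0.01 in LMA against LMS without the 4 samples, with a standard error of 0.03 and an adjusted p of 0.72, whereas over all samples the difference was 1.12 with a standard error of 0.68 and an adjusted p of 0.24.

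Gapdh (ENSMUSG00000057666, chromosome 6 from 125161715 to 125166467) encodes the dehydrogenase of the middle step and was at 51.7 to 81.3 FPKM in LMA, at 61.9, 8.52, 57.0, 57.4, 6.87 and 58.7 FPKM in LMS 1 to 6, at 62.7, 52.3 and 51.4 FPKM in LM, and at 23.2, 6.91 and 56.2 FPKM in N. These levels were far under those of its neighbours in the pathway, Aldoa and Pgk1. The annotation holds 72 copies of Gapdh elsewhere in the genome that share at least 95% of their sequence with its transcripts, and 31 of them were listed over 1 FPKM in at least 1 sample. Summed over the copies, the FPKM was 3647 to 4031 in LMA, 3280, 373, 3270, 3170, 378 and 3172 in LMS 1 to 6, 3879, 3600 and 3847 in LM, and 371, 427 and 3529 in N. The most abundant copy, Gm13394 on chromosome 2, is 99.9% identical to Gapdh and alone was at 1362 to 1530 FPKM in LMA. How the reads were divided among Gapdh and its copies is not given in the sources used here, so the Gapdh level is uncertain. With the copies added, Gapdh rose by 2.20 in LMA against N (standard error 0.79, adjusted p = 0.041), while on its own row it differed by 1.51 (standard error 0.71, adjusted p = 0.10). Eno1 has 3 such copies, which summed to 536 to 588 FPKM in LMA, and Pgk1 and Pkm have 2 and 1. Adding these changed no call of Eno1, Pgk1 or Pkm in LMA against N or LMA against LMS.

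**Figure D2:**
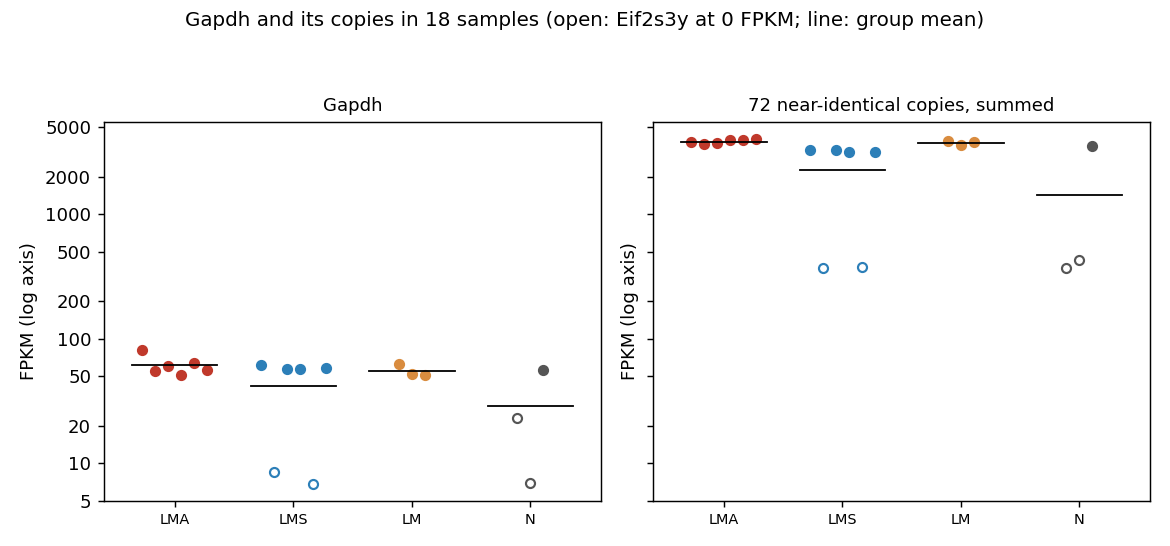
FPKM on a log axis of the Gapdh row (left) and of its 72 near-identical copies summed (right) in the LMA, LMS, LM and N samples, with open points for samples at 0 FPKM of Eif2s3y and a line at the mean of each group. The copies hold 3647 to 4031 FPKM in LMA against 51.7 to 81.3 FPKM on the Gapdh row.

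In a few single samples the FPKM of a gene dropped while its read coverage did not. Divided by the aligned gigabases of the sample, the coverage of Aldoa was 403 in LMA 3, inside the 398 to 439 of the other LMA samples, and 393 in LM 2 beside 415 and 428 in LM 1 and 3. In LMA 3 and LM 2 the deposited tables also list an assembled locus over Aldoa that reaches 106 and 139 kilobases past the annotated gene. In LM 1 a locus that reaches 123 kilobases past Pfkp was listed, and there Pfkp was at 34.5 FPKM with a coverage of 25.7 per gigabase, beside 24.65 and 25.9 in LM 2 and 3. Eno1 in LMS 1 was at 280 FPKM with a coverage of 168 per gigabase, beside 159.4 to 166.5 in LMS 3, 4 and 6. When coverage per gigabase was fitted in place of FPKM, without the 4 samples lacking Eif2s3y, Aldoa rose by 0.41 in LMA against LMS (standard error 0.03, adjusted p = 3.5e-08), against 0.22 on the FPKM scale (standard error 0.24, adjusted p = 0.42). On the same scale Aldoa over all samples rose by 2.13 in LMA against N (standard error 0.72, adjusted p = 0.030), where on the FPKM scale it missed the threshold. In LMA against LMS with the 4 samples left out, Pfkp fell by 0.45 on the coverage scale (standard error 0.03, adjusted p = 9.5e-09), Eno1 differed by -0.00 (standard error 0.03, adjusted p = 0.95), and Gapdh passed the test at 0.11 (standard error 0.04, adjusted p = 0.016). In LMA against N with the same samples left out, Aldoa rose by 0.31 (adjusted p = 0.00015), and Pfkp fell by 0.57 (adjusted p = 3.4e-07) and Eno1 by 0.14 (adjusted p = 0.025), with N 3 as the one N sample.

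**Figure D3:**
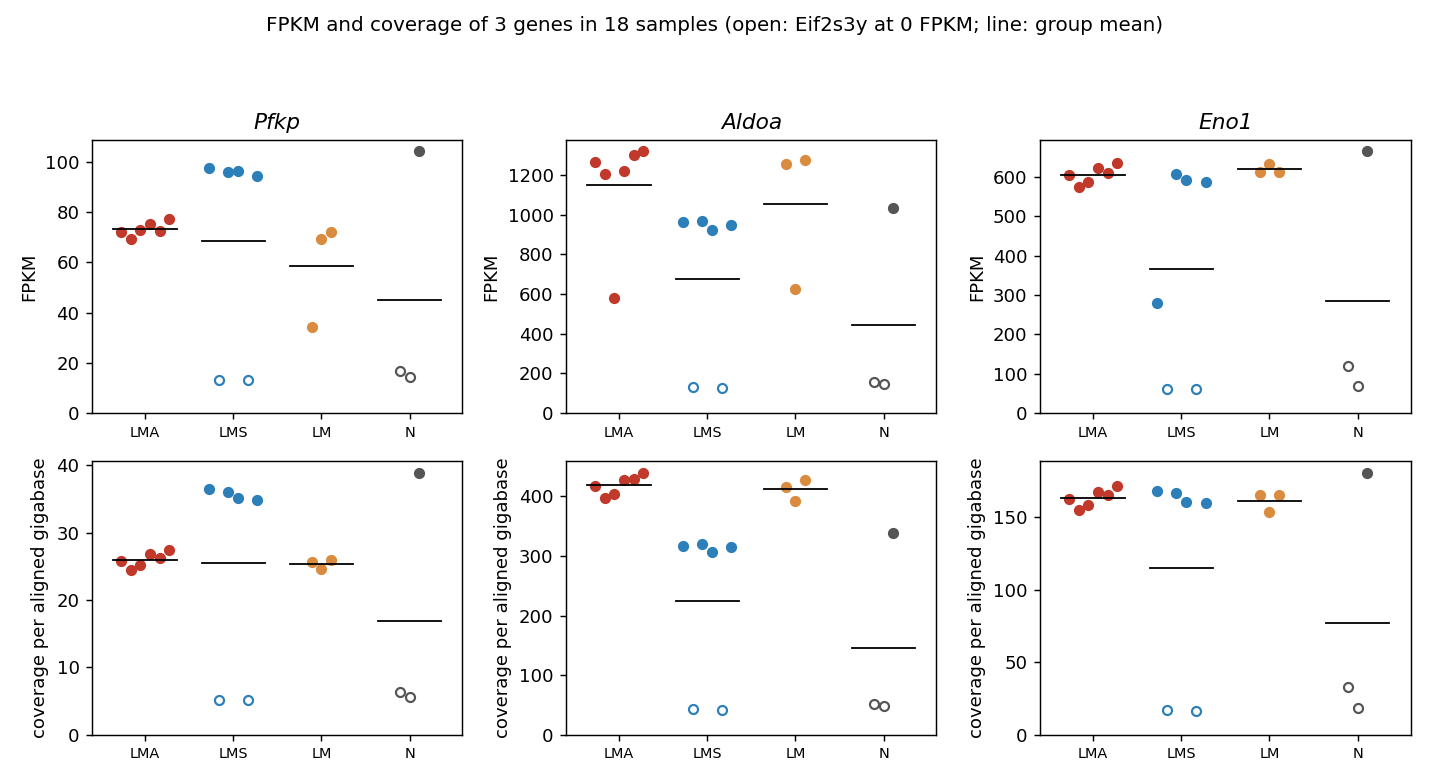
FPKM (top) and coverage per aligned gigabase (bottom) of Pfkp, Aldoa and Eno1 in the LMA, LMS, LM and N samples, with open points for samples at 0 FPKM of Eif2s3y and a line at the mean of each group. Aldoa in LMA 3 (579 FPKM) and LM 2, Pfkp in LM 1 and Eno1 in LMS 1 stand apart in the top row and not in the bottom row.

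LMA against N asks how mice given LPPC/MP and then the CD28 complex differed from untreated mice, with 1 and 2 modulations not told apart. Slc2a1 and Pgk1 rose and none of the 10 fell, and the other 8 were all at positive values that did not pass the test, between 0.77 for Pfkl and 2.25 for Pkm. The median over the 10 genes was 1.89, beside -0.13 over all genes tested. In this comparison 13.6% of all genes tested were higher and 21.9% lower, so that 38.4% of the calls were higher, against 48.9% on the TPM scale and 55.1% when scaled by the median of ratios. Leaving out N 1 or N 2 alone, Pgk1 no longer passed (1 of 10 higher), and leaving out N 3 alone, all 10 were higher. The fits without N 1, N 2 and N 3 called 2656, 2691 and 7564 of all 11455 genes tested, in either direction, against 4061 with all samples. Aldoa and Ldha passed as well when LMS 2 or LMS 5, which set the shared spread, was left out (4 of 10 higher). Calls over all genes rose there too, to 4615 without LMS 2 and 4618 without LMS 5. With the 4 samples lacking Eif2s3y left out only N 3 represents N, and its spread was taken to equal that of the rest. Slc2a1 then rose by 1.13 and Pgk1 by 0.38, and Hk2, Pfkl, Pkm and Ldha fell by 0.46, 0.44, 0.52 and 0.14, where 25.6% of all genes were higher and 36% lower. Without N 3 and LMS 1, 3, 4 and 6, all 10 rose, by 1.37 for Pfkl up to 4.49 for Pgk1, where 35.7% of all genes were higher. The neutrophil markers summed to 1899 to 2587 FPKM in LMA and 24.8 to 503 FPKM in N, and their part was not tested. The markers summed here did not all go the same way. Cxcr2 averaged 2.98 FPKM in LM and LMA together and 8.17 FPKM in the 4 samples without Eif2s3y, and Retnlg 40.7 and 43.8 FPKM. In the LMS and N samples with Eif2s3y both averaged lower, at 0.79 and 1.46 FPKM. The rest of the list averaged higher in LM and LMA than in either set.

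LM against N asks the same of the complex without antibody and shares the N samples with LMA against N. Slc2a1 alone rose and none fell, where 9.22% of all genes were higher and 15.8% lower. The other 9 were between 0.76 for Pfkl and 3.08 for Pgk1, where Pgk1 had an adjusted p of 0.072. Leaving out N 3 alone, 9 of the 10 were higher, and leaving out LMS 2 or LMS 5 alone, 2 were. These fits called 6668, 3297 and 3318 of all 11455 genes tested, in either direction. The neutrophil markers summed to 1346 to 1569 FPKM in LM and 24.8 to 503 FPKM in N, and their part was not tested. In LMS against N, 0 of the 10 and 0 of all genes passed the test in limma (0% higher and 0% lower), although 507 genes had an unadjusted p under 0.05, none of them among the 10. The values of the 10 ran between 0.47 for Slc2a1 and 1.22 for Pgk1, and the 95% interval of Slc2a1 was -0.71 to 1.64.

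LMA against LM sets the CD28 complex beside the complex without antibody. Here too 0 of the 10 and 0 of all genes passed the test (0% higher and 0% lower), and 133 genes had an unadjusted p under 0.05, none of them among the 10. The fitted differences lay between -0.03 for Eno1 and 0.39 for Pfkp, the gene with the low value in LM 1. The 95% interval of Slc2a1 was -1.19 to 1.16 and that of Ldha -1.75 to 1.80, so these data allow differences of these sizes. When the 4 samples lacking Eif2s3y were left out, which are in neither group but set the spread, again none of the 10 passed.

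LMS against LM sets the CTLA4 complex beside the complex without antibody. Slc2a1 fell and the other 9 were between -1.87 for Pgk1 and -0.16 for Pfkp without passing the test, and none rose. Of all genes, 13.3% were higher and 7.96% lower. Leaving out LM 1 or LM 3 alone, Slc2a1 no longer passed and the count was 0. Over all genes 1628 and 1657 were called in these 2 fits, against 2437 with all samples. Without LMS 2 and LMS 5 (and N 1 and N 2), Slc2a1 and Pgk1 fell and Hk2, Pfkl, Pfkp and Pkm rose, where 40.5% of all genes were higher and 27.6% lower. The summed neutrophil markers were at 136 to 482 FPKM in LMS and 1346 to 1569 FPKM in LM, and their part was not tested.

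LMA against LMS sets the antibodies side by side. Slc2a1 rose and none of the 10 fell, where 11.3% of all genes were higher and 19.3% lower, and the median of the 10 was 1.09 beside -0.12 over all genes. Higher calls were 37% of all calls here, against 51.5% on the TPM scale and 52.3% by the median of ratios. Leaving out N 3 alone, which enters only the shared spread, Pgk1 passed too. Calls over all genes then rose from 3512 to 4228. Leaving out the 4 samples lacking Eif2s3y, Slc2a1 and Pgk1 rose, Hk2, Pfkl, Pfkp and Pkm fell, and Aldoa, Gapdh, Eno1 and Ldha did not pass the test on the FPKM scale, whereas Aldoa and Gapdh did on the coverage scale. Of all genes 28% were then higher and 44% lower, and the median of the 10 was 0.03 beside -0.09. Without LMS 1, 3, 4 and 6 (and N 3), all 10 rose, by 1.42 for Pfkl up to 4.65 for Pgk1, where 36.6% of all genes were higher. The 4 genes that changed sign between these sets of samples were thus Hk2, Pfkl, Pfkp and Pkm, while Slc2a1 and Pgk1 kept their direction in all 3. On the FPKM scale Aldoa, Gapdh, Eno1 and Ldha also stayed at positive values in all 3. Without the 4 samples lacking Eif2s3y these were 0.22, 0.05, 0.30 and 0.01. The summed neutrophil markers were higher in LMA too, at 1899 to 2587 FPKM in LMA against 136 to 482 FPKM in LMS. Cxcr2 and Retnlg of that list went differently in the samples without Eif2s3y, as given above. The part of the neutrophil markers in these differences was not tested.

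**Figure D4:**
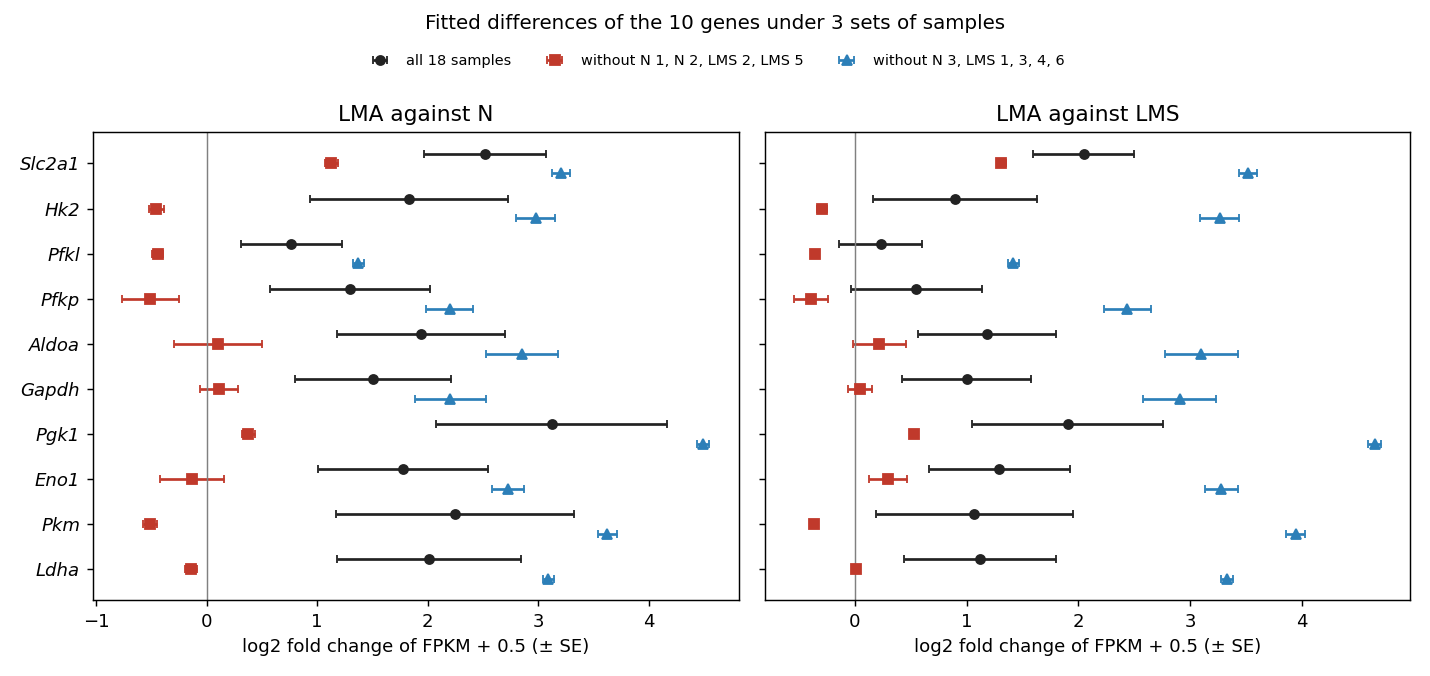
Fitted log2 fold change of FPKM + 0.5 with its standard error for each of the 10 genes in LMA against N (left) and LMA against LMS (right), over all 18 samples (black circles), without N 1, N 2, LMS 2 and LMS 5 (red squares) and without N 3 and LMS 1, 3, 4 and 6 (blue triangles). Slc2a1 lies right of 0 in all 3 sets, at 1.31 to 3.52 in LMA against LMS, and Pfkl crosses 0, at -0.36 to 1.42.

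Each isozyme was also taken as a share of its family. The hexokinases of blood cells are encoded by Hk1, the constant form, Hk3 of myeloid cells, and Hk2. The Hk2 share of hexokinase FPKM was 16.4% to 18.2% in LMA, 4.75% and 5.27% in LMS 2 and 5, 27.0% to 28.7% in the other LMS samples, 17.0% to 17.5% in LM, and 12.8%, 3.95% and 28.8% in N. LMA lay between the samples of LMS, and the difference of means was -3.14 points in LMA against LMS (two-sided exact permutation test, p = 0.66, 0.79 adjusted over the 12 share comparisons). With the 4 samples lacking Eif2s3y left out, the Hk2 share was lower in LMA than in LMS by 10.8 points, in 6 against 4 samples that did not overlap (exact p = 0.0095, the smallest that 6 against 4 allow). Hk1 was at 56.4 to 65.5 FPKM in LMA and 27.8 to 45.5 FPKM in LMS, and Hk3 at 34.6 to 41.7 FPKM and 4.17 to 22.1 FPKM, so both were higher in every LMA sample.

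The Slc2a1 share of the summed Slc2a1 and Slc2a3 FPKM was 95.8% to 97.2% in LMA, 46.2% to 95.8% in LMS, 97.0% to 97.95% in LM and 43.5% to 96.1% in N. Slc2a3 encodes GLUT3, a high-affinity transporter of neurons and lymphocytes, and was at 2.77 to 4.64 FPKM in LMA, at 7.79 and 9.65 FPKM in LMS 2 and 5 and at 1.80 to 2.66 FPKM in the other LMS samples. The difference of 17.3 points in LMA against LMS had an exact p of 0.0043 and missed the threshold after adjustment over the 12 comparisons, at 0.052. It was 10.6 points without LMS 5 alone and 2.02 points with the 4 samples lacking Eif2s3y left out (exact p = 0.019, not adjusted). The Ldha share of lactate dehydrogenase was at least 99.8% in every sample with Eif2s3y and between 95.85% and 97.2% in the 4 without it, where Ldhb, the heart form, was at 2.94 to 3.92 FPKM. The Pfkp share of phosphofructokinase was 65.2% to 67.5% in LMA, 41.2% to 67.4% in LMS, 48.5% to 66.4% in LM and 44.0% to 67.0% in N. Of the 12 share comparisons, 0 had an adjusted p under 0.05 in the exact permutation tests and 1 an unadjusted p under 0.05. The smallest p that 6 against 3 samples allow is 0.024 and that 6 against 6 allow is 0.0022.

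**Figure D5:**
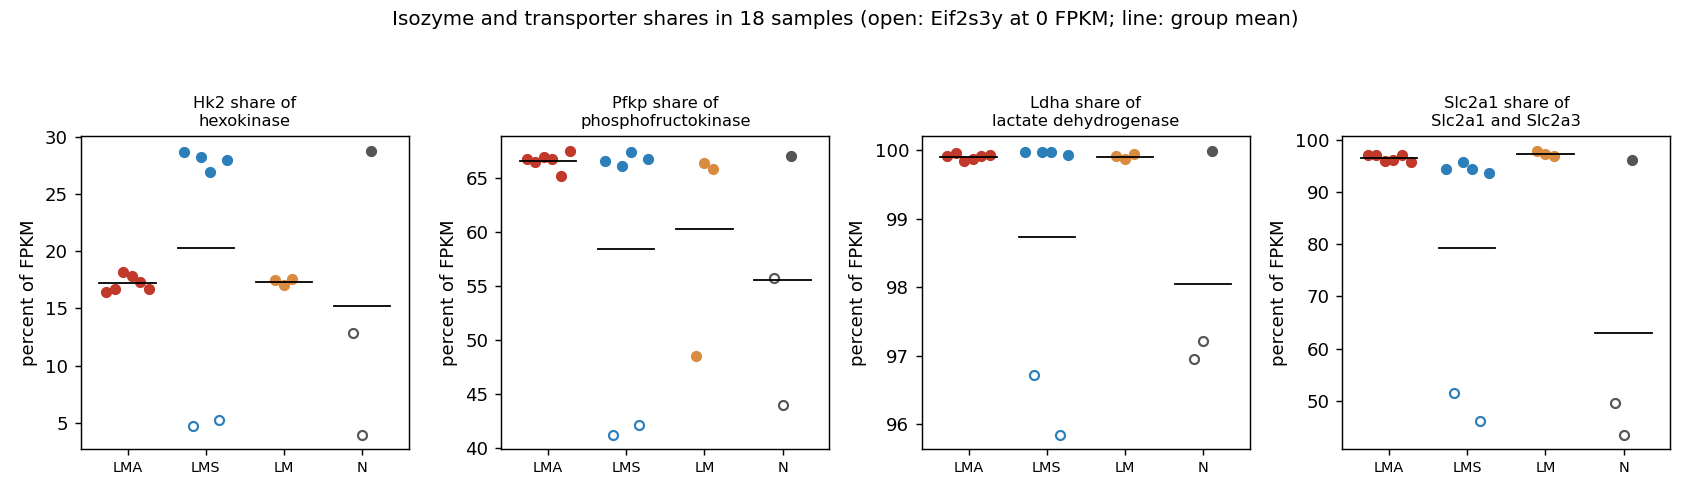
Share in percent of FPKM of Hk2 among hexokinases, Pfkp among phosphofructokinases, Ldha among lactate dehydrogenases and Slc2a1 in the sum with Slc2a3, for the LMA, LMS, LM and N samples, with open points for samples at 0 FPKM of Eif2s3y and a line at the mean of each group. The Hk2 share is 16.4% to 18.2% in LMA and splits into 27.0% to 28.7% and 4.75% to 5.27% in LMS.

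The other enzymes of the pathway were taken from a list of 22 isozymes and further glycolytic enzymes, of which 15 were tested. In LMA against N, 7 rose and 2 fell, with a median of 1.03 beside -0.13 over all genes. Over all genes tested, 13.6% were higher and 21.9% lower there, and 11.3% and 19.3% in LMA against LMS. Those that rose were Adpgk, Hk1, Hk3, Eno2, Eno1b, Tpi1 and Aldoc, and those that fell were Pgam2 and Eno3, the muscle forms of phosphoglycerate mutase and enolase. Eno1b was at 8.48 FPKM in N 1, where the Eno1 copies described above summed to 17.2 FPKM and the copy Gm4735 was at 8.59 FPKM. By these levels Eno1b is likely among those copies, and its reads may not be told from those of Eno1. Tpi1, the triose phosphate isomerase, was at 446 to 508 FPKM in LMA and at 28.3, 33.0 and 445 FPKM in N. In LMA against LMS, 3 rose (Adpgk, Hk3 and Hk1) and 2 fell (Eno3 and Pgam2), with a median of 0.66 beside -0.12. Hk3 rose by 1.60 (standard error 0.45, adjusted p = 0.012) and Hk1 by 0.66 (standard error 0.20, adjusted p = 0.016), while Eno3 fell by 0.88 (standard error 0.15, adjusted p = 0.00025). In the fit that omits the 4 samples lacking Eif2s3y, 10 of the 15 rose and 3 fell in LMA against LMS, where 28% of all genes were higher and 44% lower.

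Of 12 other glucose transporters, 5 were tested, and Slc2a8, an intracellular transporter, was the 1 that rose in LMA against N and in LMA against LMS, with none falling. Slc2a8 was at 4.28 to 5.21 FPKM in LMA, 2.76 to 4.27 FPKM in LMS and 1.79 to 4.201 FPKM in N. The median of the 5 was -0.16 in LMA against LMS beside -0.12 over all genes. Of all genes, 13.6% were higher and 21.9% lower in LMA against N, and 11.3% and 19.3% in LMA against LMS. Slc2a6, the lysosomal GLUT6 of macrophages, was at 6.00 to 7.38 FPKM in LMA, 15.5 to 18.1 FPKM in LMS 1, 3, 4 and 6, 2.96 and 3.16 FPKM in LMS 5 and 2, and 4.68, 3.003 and 17.5 FPKM in N. It followed the order of Hk2, with a log2 fold change of -1.196 in LMA against LMS without the 4 samples (standard error 0.06, adjusted p = 1.4e-09).

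Among 25 regulators of glycolysis, of which 23 were tested, 6 rose and 3 fell in LMA against N, and 6 rose and 2 fell in LMA against LMS. The medians were 0.07 and 0.02, beside -0.13 and -0.12 over all genes. Of all genes, 13.6% were higher and 21.9% lower in LMA against N, and 11.3% and 19.3% in LMA against LMS. Pfkfb3, which makes the main activator of phosphofructokinase, was at 40.7, 45.4 and 47.4 FPKM as the lowest, median and highest of LMA. It was at 15.2, 7.96, 15.6, 14.1, 7.95 and 14.1 FPKM in LMS 1 to 6, at 44.0, 42.3 and 45.6 FPKM in LM, and at 12.3, 8.09 and 15.9 FPKM in N. All LMA and LM samples were above all LMS and N samples, as for Slc2a1. Pfkfb3 rose by 1.85 in LMA against LMS (standard error 0.18, adjusted p = 1.2e-06) and by 1.57 without the 4 samples (standard error 0.04, adjusted p = 3.2e-12). Txnip and Arrdc4, related arrestin-like proteins that restrain glucose uptake, rose as well. Txnip was at 403 to 439.5 FPKM in LMA, 149 to 254 FPKM in LMS and 153 to 245 FPKM in N, a rise of 1.02 in LMA against LMS (standard error 0.15, adjusted p = 8.1e-05). Hif1a, which encodes the oxygen-regulated subunit of HIF1, was at 23.4 to 26.4 FPKM in LMA, 15.7 to 20.1 FPKM in 5 LMS samples and 21 FPKM in LMS 3, and 16.3 to 19.6 FPKM in N, a rise of 0.39 in LMA against LMS (standard error 0.07, adjusted p = 7e-04). Hif1an, which encodes an inhibitor of HIF1, and Prkaa1 of the AMP-activated kinase fell in both comparisons. Myc was at 19.5 to 23.3 FPKM in LMA, 2.66 to 4.04 FPKM in LMS 1, 3, 4 and 6 and 31.3 and 32.9 FPKM in LMS 5 and 2, so that its order was the reverse of Hk2.

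Of 20 HIF target genes outside glycolysis, 18 were tested. Over all genes, the shares higher and lower were 13.6% and 21.9% in LMA against N and 11.3% and 19.3% in LMA against LMS. In LMA against N, 6 rose (Bhlhe40, Car9, P4ha1, Ndrg1, Vegfa and Ero1l) and none fell, with a median of 1.54 beside -0.13, and in LMA against LMS 3 rose (Bhlhe40, Ddit4 and Car9) and none fell, with a median of 0.90 beside -0.12. Ndrg1, a stress-induced gene, was at 203 to 235 FPKM in LMA, 133 to 138 FPKM in LMS 1, 3, 4 and 6, 9.44 and 9.64 FPKM in LMS 2 and 5, and 5.80, 10.0 and 152 FPKM in N. With N 1, N 2, LMS 2 and LMS 5 left out, 8 of the 18 rose and 8 fell in LMA against LMS, with Bnip3 and Car12 among those that fell, beside 28% of all genes higher and 44% lower.

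Pyruvate can leave as lactate or enter the mitochondria, and 22 genes of these routes were listed, of which 20 were tested. Bsg, the chaperone of the lactate transporters, and Pdk3, which shuts off pyruvate dehydrogenase, rose in LMA against N, and Slc16a7, Pdp1 and Mpc1 fell in LMA against LMS. The medians were 0.19 and -0.02. For this and the next 2 lists, 13.6% of all genes were higher and 21.9% lower in LMA against N. In LMA against LMS these shares were 11.3% and 19.3%. Of the 16 genes of the TCA cycle, all tested, none passed the test in LMA against N and 1, Idh3g, fell in LMA against LMS. Among the TCA genes 2 rose (Ogdh and Mdh2) and 12 fell in LMA against LMS when N 1, N 2, LMS 2 and LMS 5 were left out, with a median of -0.23 beside -0.09 over all genes, of which 28% were higher and 44% lower. Of the 7 genes of the pentose phosphate pathway, all tested, Rpe rose and Rpia fell in LMA against N, and Rpia and Taldo1 fell in LMA against LMS. Pgd, an NADPH-producing enzyme of that pathway, was at 76.1 to 86.3 FPKM in LMA, 135 to 138 FPKM in LMS 1, 3, 4 and 6, and 26.0 and 26.8 FPKM in LMS 2 and 5, the order of Hk2 again. With N 1, N 2, LMS 2 and LMS 5 left out, 6 of the 7 fell and Rpe rose in LMA against LMS, in the same fit with 44% of all genes lower.

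The genes most alike in pattern were sought among all other genes tested, by the root mean square difference of centred log2(FPKM + 0.5) over the 18 samples. For Slc2a1 these were Hmga1, Fcgr1, Anxa3 and Nr1d1, at 0.11, 0.14, 0.15 and 0.16, where the median over all genes was 1.40. For Ldha they were Anxa5 (0.04), Mif (0.06), Pgam1 (0.09) and S100a6 (0.10), with a median of 1.39, and Pgam1 is the mutase of the same pathway. For the mean of the 10 genes they were Gm43738 (0.04), Gpt2 (0.08), Msmo1 (0.09) and Mif (0.10), with a median of 1.30. Within the 10, Hk2 and Ldha were closest, at 0.20, and Pfkl and Pgk1 farthest apart, at 1.25. These are descriptions over samples that split as stated above, and near values show only that genes separate the same samples.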

How the data were processed

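The authors extracted splenocyte RNA, sequenced it on an Illumina NovaSeq system and expressed the estimated counts as FPKM. Each deposited table holds FPKM, a coverage signal (mean read depth) and a TPM column per gene, beside assembled loci for the same reads. The authors' TPM column is treated as a score, since the assembled loci alone sum to 1000000. The submitters' processing notes name mm10 and GATK 4.2, and do not name an aligner or quantifier, not given in the sources used here. Coverage over FPKM gave the aligned gigabases. Read counts per gene were not used here, and counting intervals are not given. Protein-coding genes (GENCODE M21) averaging 0.5 FPKM or more were tested with limma 3.58.1 in R 4.3.3 (trend, 4 groups, all 18 samples) on log2(FPKM + 0.5), with Benjamini-Hochberg adjustment and a threshold of 0.05. Isozyme shares were tested by exact permutation, two-sided (scipy 1.17.1). Near-identical copies were found with blastn 2.17.0 (at least 95% identity over 50% of the copy and 300 bases). The fit was tested on simulated data. A few list genes are not reported here. Members and lists were chosen with earlier results of these data known. Named list genes are those called, up to 6 per direction with the smallest adjusted p, plus isozymes. Alternatives were pseudocounts of 0.1 and 1, no filter, a mean of at least 5 FPKM, other scalings, 2 groups only, sample weights, a replicate block and leaving out each sample.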

Additional observations from a re-analysis of the deposited data

Results flagged for a closer look

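Aldoa in LMA 3 was at 578.8 FPKM, while the other 5 LMA samples were at 1203 to 1318 FPKM. It was the only 1 of 20 groups of 6 samples, the 10 genes in LMA and in LMS, whose lowest or highest sample stood that far from the others by Dixon's criterion, and chance picks about 1 in 20 such groups. The coverage of Aldoa per aligned gigabase was 403 in LMA 3 and 398 to 439 in the other LMA samples, so the coverage did not set LMA 3 apart.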

How the results depend on the processing

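Leaving out the 4 samples lacking Eif2s3y, 4 of the 10 genes were lower in LMA against N, with reversed values of -0.46 for Hk2, -0.44 for Pfkl, -0.51 for Pfkp, -0.14 for Eno1, -0.52 for Pkm and -0.14 for Ldha, and of -1.29 for Slc2a6 and -0.81 for Pgd. In LMA against LMS the reversed values were -0.29 for Hk2, -0.36 for Pfkl, -0.39 for Pfkp, -0.37 for Pkm and -0.71 for Pgd, with 2 genes higher and 4 lower. Then 2 were higher and 5 lower in LM against N, while LMS against LM had 4 higher and 2 lower. The shares in LMA against LMS moved to -10.8 points for Hk2, -0.128 for Pfkp, -0.053 for Ldha and 2.02 for Slc2a1. Without N 3 and LMS 1, 3, 4 and 6, all 10 were higher in LMA against N, LM against N and LMA against LMS and all 10 lower in LMS against LM, with Myc at -0.76 in LMA against N and -0.55 in LMA against LMS and Slc2a6 at 1.05 in LMA against LMS. Sample weights gave 10 higher in LMA against N, LM against N and LMS against N, 3 higher and 2 lower in LMS against LM, and 2 higher and 4 lower in LMA against LMS, with -0.27 for Hk2, -0.35 for Pfkl, -0.38 for Pfkp, -0.34 for Pkm and -0.69 for Pgd there and -0.37 for Myc in LMA against N. With 2 groups only, 5 were higher in LMA against N, 0 higher in LM against N and 0 lower in LMS against LM. Over all genes these 3 fits called 3849, 55 and 1961.

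Leaving out single samples gave 1 to 10 genes higher in LMA against N, where 10 were called without N 3 and 1 without N 1 and without N 2, when Pgk1 no longer passed. It gave 1 to 9 higher in LM against N, with 9 without N 3, 0 to 1 lower in LMS against LM, with 0 without LM 1 and without LM 3, and 1 to 2 higher in LMA against LMS, with 2 without N 3. Slc2a6 then ranged from -0.39 to 0.79 and Myc from -0.76 to 1.62 in LMA against N, and Pfkl from -0.012 to 0.36 and Pgd from -0.24 to 0.23 in LMA against LMS. The Hk2 share ranged from -3.64 to 8.80 points in LMA against N and from -0.494 to 11.9 in LMS against N, and the Pfkp share from -2.99 to 8.53 in LMS against N. Pseudocounts, filters and the TPM scale changed no call of the 10 genes in LMA against N or LMA against LMS. Aldoa passed in LMA against N by the median of ratios. The median of all genes in LMA against N was -0.13 on the FPKM scale and -0.00 on the TPM scale. Higher calls were 36.8% of the calls in LM against N, against 53.4% by the median of ratios, and for LMS against LM 62.6% against 47.7%. Of all genes, 4061 were called in LMA against N, 2656 to 7564 without single samples. In LM against N 2871 were called, 1778 to 6668 without single samples and 55 with 2 groups only. LMS against N had 0, and 3834 without N 3. Without single samples, LMS against LM had 1628 to 3073 and LMA against LMS 3063 to 4228. Against N, sample weights called 6917 genes for LMA, 6693 for LM and 6769 for LMS (4061, 2871 and 0 without weights). They called 163 for LMA against LM, 7938 for LMS against LM and 8337 for LMA against LMS (0, 2437 and 3512 without weights). LMA against LM had 39 with no filter and 48 with 2 groups only. Leaving out the 4 samples gave 7051, 6898, 603, 66, 7796 and 8250 in the same order, and leaving out N 3 and LMS 1, 3, 4 and 6 gave 9148, 8799, 2, 9, 8691 and 9021. The replicate block kept 2 genes higher in LMA against N and 1 in LMA against LMS, with 3242 and 3370 of all genes called. The numbers were not taken as pairs, since correlations of same-numbered samples ran from -0.642 to 0.906.

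Read counts per gene were not used here, so depth limits are not stated per gene. The cause of each change was not tested.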

Other observations

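Glycogen stores glucose and is built and broken down by a separate set of enzymes. Of 10 genes listed for it, all tested, Ugp2, Pgm1 and Gyg rose in LMA against N and again in LMA against LMS, and none fell, with medians of 0.92 and 0.69 beside -0.13 and -0.12 over all genes. Of all genes, 13.6% were higher and 21.9% lower in LMA against N, and 11.3% and 19.3% in LMA against LMS. Ugp2 and Pgm1 prepare the activated sugar for glycogen and Gyg is the protein primer of the chain. When the 4 samples lacking Eif2s3y were left out, Pygl, a glycogen phosphorylase, rose as well in LMA against LMS, while Gbe1 and Pygb fell, beside 28% of all genes higher and 44% lower.

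Serine and glycerol are made from intermediates of glycolysis. Of 7 genes listed for these branches, all tested, Gpd2, Psph and Tpi1 rose in LMA against N and Gpd2, the mitochondrial glycerol phosphate dehydrogenase, rose in LMA against LMS, with none falling and medians of 0.58 and 0.28. Of all genes, 13.6% were higher in LMA against N and 11.3% in LMA against LMS. Leaving out those 4 samples, Shmt2, Phgdh and Psat1, enzymes of serine and glycine synthesis, fell in LMA against LMS, where 44% of all genes were lower. Of 6 genes of gluconeogenesis, 2 were tested, and 0 passed the limma test in LMA against N or LMA against LMS, with 0 at an unadjusted p under 0.05. When the samples lacking Eif2s3y were left out, Pck2, the mitochondrial phosphoenolpyruvate carboxykinase, rose in both comparisons.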
